A study of Caenorhabditis elegans with 40 samples.

Results

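The cytosolic ribosomal protein genes of Caenorhabditis elegans were followed in whole third-stage (L3) larvae. Every gene whose symbol in the WBcel235 annotation starts with rpl- or rps- was taken, together with rla-0, rla-1 and rla-2. This gave 81 of 19934 genes: 47 rpl genes, 31 rps genes and 3 rla genes. They lie on every nuclear chromosome, with 25 on I, 10 on II, 18 on III, 18 on IV, 8 on V and 2 on X. The members were set by this naming rule and not by their expression values, though earlier results of these data were known.

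A cytosolic ribosome is built from a large and a small subunit, and each ribosomal protein has a fixed place on the ribosomal RNA of its subunit. The rpl genes encode proteins of the large subunit and the rps genes those of the small subunit, while rla-0, rla-1 and rla-2 encode the acidic stalk of the large subunit, which receives the translation factors that hydrolyze GTP. Because every growing cell assembles ribosomes from about equal amounts of each protein, these mRNAs belong to the most abundant of a growing larva, and their levels tend to move together.

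The study asked what happens to gene expression when a single kleisin, the subunit that closes the ring of a cohesin or condensin complex, is cut in living animals. SCC-1 and COH-1 are kleisins of cohesin. KLE-2 is the kleisin of condensin II. DPY-26 is the kleisin of condensin I and of the related complex that, recruited by SDC-3, lowers the output of each hermaphrodite X chromosome in dosage compensation. Transcript levels were estimated in 40 samples of 12 groups from 4 batches named in the labels, and each group was compared with the control of its own batch.

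All strains carried ubsSi20, a transgene on chromosome II that makes TEV protease under the heat-inducible hsp-16.2 promoter. All animals, controls included, were seeded as synchronized L1 larvae, fed for 3 h at 22 °C, heated at 34 °C for 30 min and collected 19 h later, so every group was a heat-shocked one. Batch 1 held the TEV control (strain PMW366), dpy-26(ubs4[FLAG-TEVcs]) IV (PMW382), kle-2(ubs14[FLAG-TEVcs]) III (PMW775) and scc-1(ubs19[FLAG-TEVcs]) II (PMW784), with 4 samples each. Batch 2 held the TEV control again, coh-1(ubs26[FLAG-TEVcs]) X (PMW828) and the strain with both cleavable cohesin kleisins (PMW844), with 3 samples each. In batch 3 all animals received 1 mM auxin: the TEV strain PMW366, the same background with the F-box protein TIR1 from xeSi376, driven by the eft-3 promoter (PMW823), and a strain with TIR1, cleavable DPY-26 and sdc-3(ubs20), an auxin-dependent degron on SDC-3 (PMW821), with 3 samples each. Batch 4 held 3 samples of the SDC-3 degron strain (PMW822) with 1 mM auxin and 3 samples of that strain on ethanol plates without auxin. Cleavage and degradation act on the protein, so the mRNA of the target gene is no check of the treatment. In the SDC-3 comparison, auxin itself and the loss of SDC-3 cannot be told apart. Each group was represented by one strain. Of the marker lists for tissues of a larva, 24 of 25 neuronal genes, all 18 body wall muscle genes, all 19 intestinal genes and 17 of 20 epidermal genes had at least 10 reads in every sample.

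The 81 genes took between 12.7% and 21.1% of all reads in a sample, at a depth of 20460404 to 88427247 reads. In the TEV controls the share was 16.3% ± 0.297 (SD, n = 4) in batch 1 and 16.09% ± 1.9 (SD, n = 3) in batch 2. It was 17.4% ± 0.295 after cleavage of SCC-1, 17.1% ± 1.04 after cleavage of DPY-26 and 18.1% ± 2.00 after cleavage of KLE-2 (SD, n = 4 each). In batch 2 it was 15.5% ± 0.520 after cleavage of COH-1 and 14.2% ± 1.35 after cleavage of both cohesin kleisins (SD, n = 3 each). In batch 3 the share was 16.9% ± 2.35 in the TEV control with auxin, 17.95% ± 1.94 in the TIR1 control and 16.8% ± 1.35 with DPY-26 cleaved and SDC-3 degraded (SD, n = 3 each). In batch 4 it was 18.9% ± 1.37 without and 18.5% ± 0.617 with auxin (SD, n = 3 each). The 4 SCC-1 samples, between 17.02% and 17.7%, and the 4 KLE-2 samples, between 16.9% and 21.1%, lay above the 4 TEV controls of their batch, between 15.9% and 16.6%. In the other comparisons the samples of the 2 groups overlapped. The shares are a description and were not tested. In bulk samples, fewer cells of a type and less RNA per cell cannot be told apart, and this holds for every level below.

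**Figure D1:**
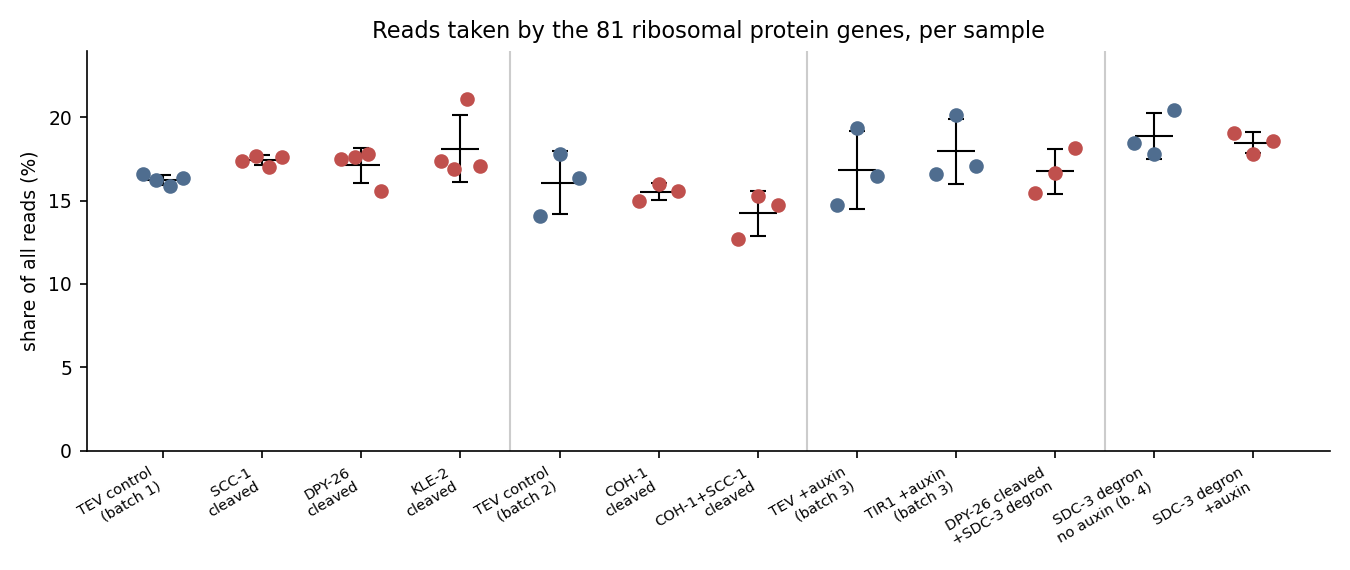
Share of all reads (percent, y axis) taken by the 81 ribosomal protein genes in each of 40 samples (points), by group, with the group mean and SD in black; control groups are blue and cleavage or degron groups red. The shares run from 12.7% to 21.1%, and the highest point is a single KLE-2 sample.

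Levels were compared between genes in TPM, which divide reads by transcript length and scale each sample to the same sum. In the batch 2 TEV control, 75 of the 81 members had mean levels of at least 1000 TPM and under 10 times that, with a median of 3704 TPM. In the batch 1 TEV control, 71 members did so, with a median of 2987 TPM. The stalk genes were typical members: in the batch 1 TEV control, rla-0 stood at 2818 ± 221 TPM, rla-1 at 3863 ± 208 TPM and rla-2 at 3648 ± 571 TPM (SD, n = 4 each). Of 5 large-subunit genes that served as examples of the bulk, rpl-10 stood at 3838 ± 144 TPM, rpl-12 at 2691 ± 205 TPM, rpl-3 at 2672 ± 188 TPM, rpl-1 at 2449 ± 249 TPM and rpl-7A at 1711 ± 205 TPM in that control. The order of rpl-12, rpl-3 and rpl-1 does not exceed their spread.

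The members with the highest mean level over the 40 samples were short ones. They were rpl-41.2, which encodes the smallest ribosomal protein, at 35600 TPM, rpl-39, whose product lines the exit tunnel of the large subunit, at 25702 TPM, and rpl-29 at 13424 TPM. This mean mixes batches, and in the TEV controls these short members stood far higher in batch 1 than in batch 2. Their rank therefore holds for the mean over all samples and not for each batch. The lowest by the same mean were rpl-42 at 0.118 TPM, rpl-24.2 at 185 TPM and rpl-11.1 at 344 TPM. In the batch 1 TEV controls rpl-37, at 21.7 to 68.3 TPM, stood below rpl-24.2 and rpl-11.1. rpl-42 was the only member that did not pass the filter of at least 10 reads in as many of the compared samples as 1 group holds, so 80 of 81 members were tested in each comparison. The gene rpl-24.2 is related to the ribosome assembly factor RSL24D1 of humans, whereas rpl-24.1 encodes the subunit itself.

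The level per length of the short members was not comparable between batches. In the 4 TEV controls of batch 1, rpl-39 stood at 56250 ± 10974 TPM (SD, n = 4), against 7586 ± 2253 TPM (SD, n = 3) in those of batch 2. Its share of reads overlapped, at 861 to 1282 RPM (reads scaled to the library total) in batch 1 and 566 to 958 RPM in batch 2. The same was seen for rpl-41.2, with mean levels of 67195 and 18544 TPM, and rpl-29, with 26559 and 5947 TPM. For rpl-37 the level was lower in batch 1, with 44.9 TPM against 904 TPM, and here the reads differed too, at 3.5 to 12.3 RPM in the TEV controls of batch 1 and 91.1 to 218 RPM in those of batch 2. The main transcripts of these 4 genes are 152 to 344 bases long. TPM values of members with a main transcript under 400 bases should be read only within a batch.

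**Figure D2:**
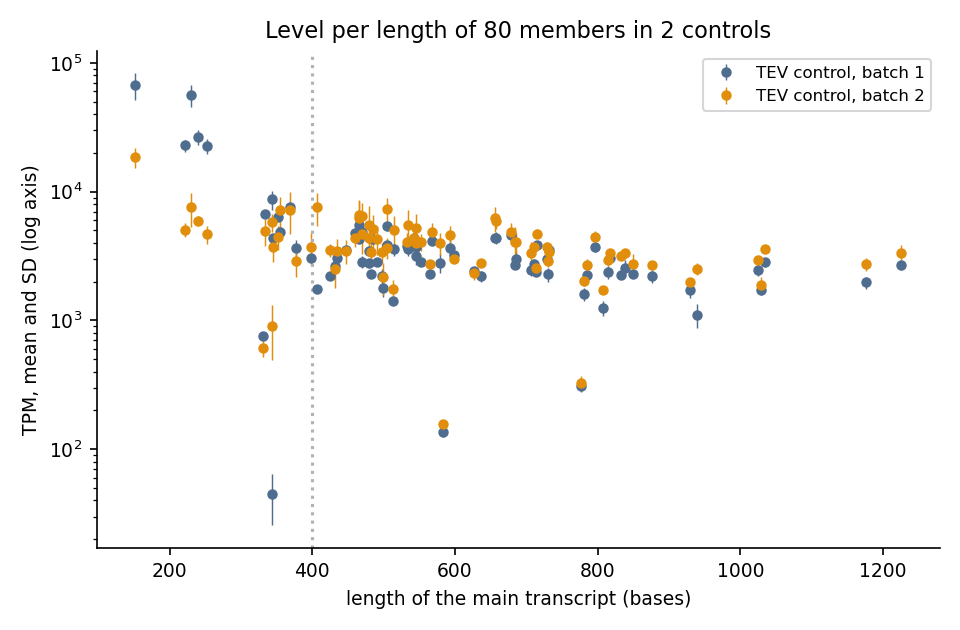
Mean and SD of the level in TPM (log y axis) of 80 members against the length of the main transcript in bases (x axis) in the TEV controls of batch 1 (blue, n = 4) and batch 2 (orange, n = 3); the dotted line marks 400 bases. Most longer members lie in 1 band in both batches, whereas short members such as rpl-39 lie far apart, at 56250 and 7586 TPM.

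Many ribosomal protein genes have several quantified transcripts, and a level summed over them is safer than that of one of them. Only 21 members had 1 transcript and 60 had 2 or more, up to 81 for rpl-30. In 30 members, the second transcript took more than 10% of the gene's TPM on average. Which transcript of rps-23 was reported differed by batch: F28D1.7a.2 took 99.7% to 99.9% of its TPM in every sample of batch 1 and 8.4% to 24.7% in batches 2 to 4. The same held for rpl-7A, whose transcript Y24D9A.4.1 took 97.3% to 99.4% in 15 of 16 samples of batch 1 and 0.0% to 1.5% in batches 2 to 4. For rps-20, the transcript of 838 bases took 31.8% to 58.3% in batches 2 to 4 and from 0.0% to 98.4% in batch 1. For rps-27 the largest shares passed between F56E10.4.6 and F56E10.4.7, which differ by 2 bases in length. No gene-level result below uses the transcripts singly.

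One library stood apart. The third KLE-2 sample gave its 81 members 21.1% of its reads, against 16.9% to 17.4% in the other 3 KLE-2 samples. Transcript Y24D9A.4.1 took 21.5% of rpl-7A there, against 98.6% to 99.1% in the others, and the transcript Y71F9AL.13a.1 of rpl-1 took 39.4%, against 0.0% in every other sample. The short rpl-39 stood at 234 RPM there, against 966 to 1254 in the other KLE-2 samples. The share of reads was 17.1% ± 0.221 without it (SD, n = 3), and the results of the KLE-2 comparison are given with and without it.

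After cleavage of DPY-26 the X-linked members of the family rose, and of the autosomal members 1 passed the test. Of 80 tested members, 2 rose and 1 fell at an adjusted p under 0.05 (edgeR quasi-likelihood test, Benjamini-Hochberg adjustment over all genes), where 15.5% of all 14340 tested genes rose and 11.9% fell. The 2 that rose, rpl-11.2 and rpl-25.1, are the 2 members on the X chromosome. The median log2 fold change of the 80 members was 0.01, against 0.61 for all 2224 tested X genes and −0.07 for all 12104 autosomal genes. Of those X genes 1505 rose and 11 fell.

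The gene rpl-11.2, at X:2241738–2242618 on the minus strand, encodes a protein of the large subunit that contacts its smallest ribosomal RNA. It was read at 2628, 2693, 2169 and 2412 CPM (reads of a gene relative to the library size, scaled by TMM factors within the comparison) in the TEV controls. After cleavage of DPY-26 it was read at 4527, 4411, 4209 and 3455 CPM. Every cleavage sample lay above every control, as in 15.3% of all genes, with means of 4150 ± 482 and 2475 ± 237 CPM (SD, n = 4 each), a log2 fold change of 0.75 (SE 0.11, edgeR adjusted p = 0.0021). Leaving out each sample in turn gave 0.70 to 0.83, with adjusted p from 0.0013 to 0.0097.

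The gene rpl-25.1, at X:4715178–4715796 on the plus strand, encodes a protein near the exit of the peptide tunnel. Its controls stood at 928, 908, 676 and 786 CPM, and the DPY-26 samples at 1514, 1500, 1458 and 1134 CPM. The groups did not overlap, with means of 825 ± 117 and 1401 ± 180 CPM (SD, n = 4 each), a log2 fold change of 0.77 (SE 0.13, edgeR adjusted p = 0.0040). In both genes the fourth DPY-26 sample was the lowest of its group.

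Each of these genes has an autosomal copy, which allows a comparison of an X-linked and an autosomal gene for the same protein in the same animals. The copy of rpl-11.2 is rpl-11.1 on chromosome V, with a log2 fold change of 0.18 (edgeR adjusted p = 0.25) after cleavage of DPY-26. The copy of rpl-25.1 is rpl-25.2 on chromosome I, with a log2 fold change of 0.01 (edgeR adjusted p = 0.93). Neither passed the threshold. The X-linked copy supplied most of the mRNA of the first pair and a larger part of the second: in the batch 1 TEV controls rpl-11.1 made up 11.9% ± 0.733 of the summed TPM of its pair, and rpl-25.1 made up 55.7% ± 2.64 of its pair (SD, n = 4 each).

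After cleavage of DPY-26, rpl-25.1 made up 67.5% ± 1.55 of its pair, and rpl-11.1 made up 8.46% ± 0.956 of its pair (SD, n = 4 each). In both pairs the groups did not overlap, and the X-linked share was higher in every cleavage sample (exact two-sided permutation test, p = 0.0286, the smallest that 4 against 4 samples can give). Over the 32 tests of shares, 4 pairs in 8 comparisons, the adjusted p was 0.267. In the batch 3 comparison of DPY-26 cleavage with SDC-3 degradation, rpl-25.1 made up 61.1% ± 1.35 against 49.8% ± 2.87 in the TIR1 control, and rpl-11.1 made up 8.04% ± 0.905 against 10.9% ± 1.02 (SD, n = 3 each). Here too the groups did not overlap, but with 3 against 3 samples an exact permutation test cannot go below p = 0.1. These share tests were added after the fold changes had been seen.

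**Figure D3:**
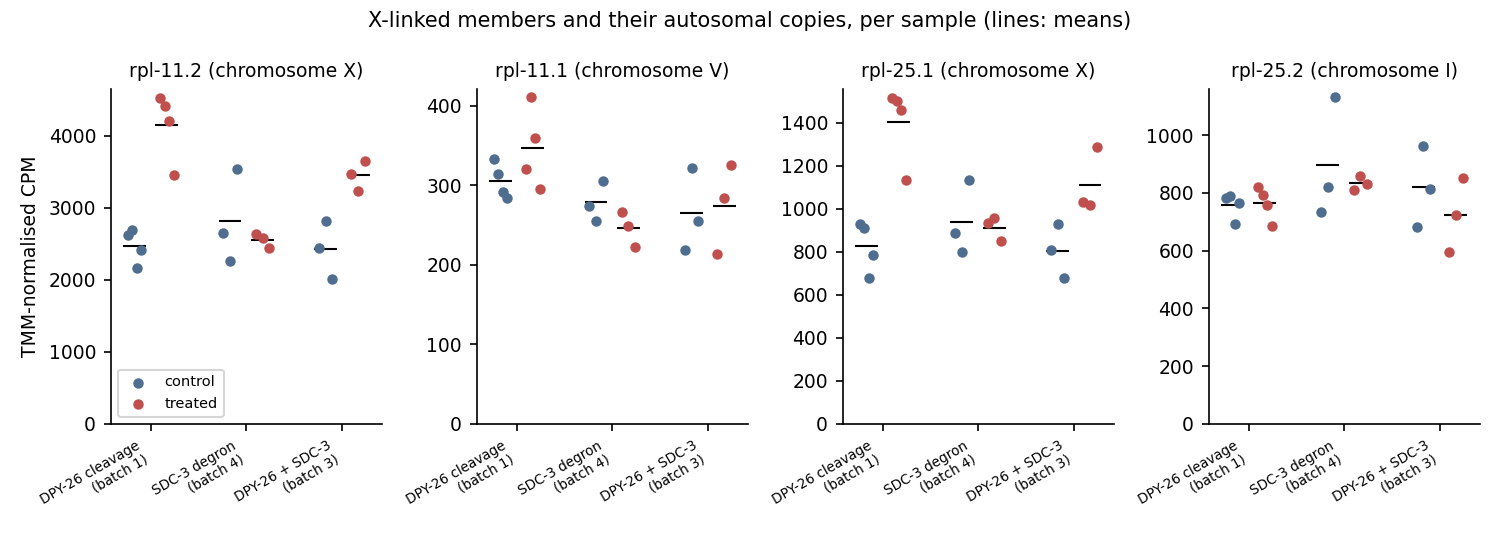
TMM-normalized CPM (y axis) of rpl-11.2 and rpl-25.1 on X and of their autosomal copies rpl-11.1 and rpl-25.2, in each control (blue) and treated (red) sample of 3 comparisons, with group means as lines. The X-linked genes are higher in every DPY-26 sample than in its controls, and the autosomal copies overlap with their controls in all 3 comparisons.

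With DPY-26 cleaved and SDC-3 degraded together, the X-linked members again lay above their controls but did not pass the test. No member of 80 passed the edgeR test, which 14.7% of 13992 genes passed in either direction. At an unadjusted p under 0.05, 2 members were higher and 0 lower, where 19.1% of genes were higher and 11.6% lower. Counts for rpl-11.2 were 3469, 3228 and 3656 CPM, against 2442, 2816 and 2010 CPM in the TIR1 control, a log2 fold change of 0.51 (SE 0.15, edgeR adjusted p = 0.060). For rpl-25.1 they were 1032, 1017 and 1285 CPM, against 809, 931 and 677 CPM, a log2 fold change of 0.46 (SE 0.16, edgeR adjusted p = 0.086). In both genes the 3 treated samples lay above the 3 controls, as in 20.3% of all genes tested. DESeq2 passed both, with adjusted p of 0.0092 and 0.035. The median of all 2176 X genes was 0.58, and 1079 of them rose.

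With the SDC-3 degron alone, the X-linked members did not pass the test. The log2 fold change was −0.14 for rpl-11.2 (edgeR adjusted p = 0.71) and −0.04 for rpl-25.1 (adjusted p = 0.90), while the median of all 2110 X genes was 0.14 and 25 of them rose. The sign of both changed when the third no-auxin control was left out, at 0.05 for rpl-11.2 and 0.11 for rpl-25.1. Their direction also depended on the TMM scaling. Unscaled, rpl-11.2 stood at 2790, 2801 and 2638 RPM with auxin and at 2598, 2301 and 2875 RPM without. For rpl-25.1 the unscaled values were 984, 1034 and 914 RPM with and 870, 810 and 921 RPM without. The difference between the effect of DPY-26 cleavage with SDC-3 degradation and the effect of DPY-26 cleavage alone was −0.22 for rpl-11.2 (edgeR interaction term, adjusted p = 0.84) and −0.29 for rpl-25.1 (adjusted p = 0.80). These effects were measured in different batches. No member of 80 passed this test of the difference, in which 0.0281% of genes passed in each direction, and none did so at an unadjusted p under 0.05, as 8.46% of genes did, or with DESeq2.

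The one member that fell after cleavage of DPY-26, rpl-41.1, was also the one that fell after cleavage of SCC-1 and after cleavage of both cohesin kleisins. It lies at I:4789190–4789592 on the plus strand, next to rpl-41.2 at I:4790292–4790642. They encode near-identical copies of the smallest ribosomal protein, so the division of reads between them is uncertain. By reads per length rpl-41.1 made up 1.16% ± 0.274 of the TPM of the pair in the TEV controls of batch 1 (SD, n = 4) and 3.20% ± 0.122 in those of batch 2 (SD, n = 3).

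In the DPY-26 comparison rpl-41.1 stood at 102, 114, 108 and 123 CPM in the controls and at 78.9, 73.7, 85.2 and 79.6 CPM after cleavage. All cleavage samples lay below all controls, as in 14.4% of all genes, with a log2 fold change of −0.49 (SE 0.077, edgeR adjusted p = 0.0026). All 8 fits that left out a sample kept this call. The gene rpl-41.2 had a log2 fold change of −0.17 (adjusted p = 0.17) there.

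In the SCC-1 comparison, 1 member fell and 0 rose, where 14.4% of 14410 genes rose and 14.6% fell. In this fit rpl-41.1 stood at 103, 116, 112 and 125 CPM in the controls and at 83.6, 98.7, 98.5 and 84.0 CPM after cleavage. The groups did not overlap, as for 3 members in all and 16% of all genes in this direction, with a log2 fold change of −0.32 (SE 0.087, edgeR adjusted p = 0.024). The call was lost in 4 of 8 fits with a sample left out, those without TEV control 2 or 4 or without SCC-1 sample 1 or 4, with adjusted p from 0.061 to 0.071. These controls are those of the DPY-26 comparison, so the results for rpl-41.1 are not independent.

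In the comparison of both cohesin kleisins, rpl-41.1 stood at 95.7, 140.6 and 86.7 CPM in the TEV controls of batch 2 and at 63.5, 66.0 and 51.7 CPM after cleavage. The groups did not overlap, with a log2 fold change of −0.83 (SE 0.20, edgeR adjusted p = 0.031). The call was lost without any 1 of the 3 cleavage samples (adjusted p from 0.072 to 0.11). In the remaining comparisons rpl-41.1 had log2 fold changes of −0.36 (COH-1, adjusted p = 0.87), −0.05 (KLE-2, 0.83, and −0.05 without the third sample), −0.49 (SDC-3, 0.12), −0.39 (DPY-26 with SDC-3, 0.26) and −0.05 (TIR1, 0.93), none of which passed. For rpl-41.2 the log2 fold change was −0.50 after cleavage of both cohesin kleisins (adjusted p = 0.22) and −0.17 after cleavage of SCC-1 (adjusted p = 0.14).

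After cleavage of SCC-1 the other members centered on 0 once scaled by TMM factors. The median log2 fold change of the members was 0.01, with 45 above and 35 below 0, and the quartiles lay at −0.05 and 0.05. By share of all reads, every SCC-1 sample lay above every control, at 17.02% to 17.7% against 15.9% to 16.6%. The 2 measures thus differed, and whether the family shifted depends on the scaling. The largest positive value belonged to rpl-35, with a log2 fold change of 0.18 (adjusted p = 0.28). The largest negative one belonged to rpl-37, at −0.53 with an SE of 0.44 (adjusted p = 0.40). That gene was read at 2.3 to 8.0 CPM in the SCC-1 samples and 3.8 to 12.02 CPM in the controls, and the groups overlapped.

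Other lists of protein synthesis genes were counted in the same samples. Of 70 genes for proteins of the mitochondrial ribosome, 45 (64.3%, against 14.6% of all genes) fell and 0 rose after cleavage of SCC-1, with a median log2 fold change of −0.26. They included mrpl-13, at 40.7 ± 0.794 CPM in the controls and 30.8 ± 1.04 CPM after cleavage (SD, n = 4 each), a log2 fold change of −0.40 (adjusted p = 7.5e-04), and mrpl-54, at −0.49 (adjusted p = 0.0021). Of 46 tested ribosome assembly genes, 18 fell and 0 rose, with a median of −0.25. Among them nucl-1, a nucleolin-related gene of the nucleolus, went from 936 ± 89.6 to 611 ± 75.5 CPM (SD, n = 4 each), a log2 fold change of −0.62 (adjusted p = 0.0031). Of 36 translation factor genes, none passed, with a median of −0.14.

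After cleavage of DPY-26, 20 of 46 ribosome assembly genes (43.5%) fell and 2 rose, with a median log2 fold change of −0.22. Of the translation factor genes, 16 of 36 (44.4%) fell and 3 rose, with a median of −0.21. The 2 with the smallest p both encode cap-binding proteins of the eIF4E family and both rose, ife-4 with a log2 fold change of 0.65 (adjusted p = 5.5e-04) and ife-2 with one of 0.50 (adjusted p = 0.0020). The lists were not split by chromosome, and 1505 of 2224 tested X genes rose in this comparison. Of the 70 mitochondrial ribosome genes, 11 fell and 0 rose, with a median of −0.14; this is 15.7%, against the 11.9% of all genes that fell. The cytosolic members, at a median of 0.01, differed from these lists in their count and median; no test of lists against each other was made.

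The standard error had a median of 0.073 over the 80 members after cleavage of SCC-1, against 0.070 over the mitochondrial ribosome genes. After cleavage of DPY-26 the medians were 0.092 and 0.074. It was thus slightly larger for the cytosolic members in both comparisons.

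After cleavage of both cohesin kleisins nearly all members had lower values, and how many passed depended on the test. The test without pairing called 1 member lower, DESeq2 called 14, and edgeR blocked by sample number called 61. The share of all genes called by DESeq2 or the block is not given here, so the 14 and 61 have no background. Of 80 members 79 were below 0, with a median log2 fold change of −0.35, while the median of all 14049 genes was 0.01. These values were scaled by TMM factors. By share of all reads, the members took 14.2% ± 1.35 after cleavage and 16.09% ± 1.9 in the controls (SD, n = 3 each), and the groups overlapped. Leaving out 1 sample moved the members' median between −0.48 (without the first TEV control) and −0.21 (without the second), and to −0.24 without the first cleavage sample. Only rpl-41.1 fell by the test without pairing, where 11% of all genes did and 10.3% rose. At an unadjusted p under 0.05, 20 of 80 members were lower and 0 higher, where 18.7% of all genes were lower and 18.2% higher. In 26 of 80 members every cleavage sample lay below every control, as in 21.1% of all genes. Large-subunit, small-subunit and stalk genes had medians of −0.35, −0.35 and −0.37.

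Among the stalk genes, rla-2 stood at 556, 540 and 531 CPM after cleavage against 617, 838 and 649 CPM in the controls. The groups did not overlap, and its log2 fold change was −0.37 (SE 0.14, adjusted p = 0.11). rla-0 had a log2 fold change of −0.28 (adjusted p = 0.21) and rla-1 one of −0.41 (adjusted p = 0.13). The member with the highest value was rpl-24.2, at 0.02 (adjusted p = 0.94).

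The members moved together from library to library, also among controls. In the second TEV control of batch 2, 78 of 80 members lay above their control mean, with a median log2 deviation of 0.29. In the first, 75 lay below it, with a median of −0.25. After cleavage of both kleisins, the 3 samples had medians of −0.57, −0.17 and −0.29, with 80, 74 and 77 members below the control mean. Number by number, each cleavage sample had a lower median than the control of its number. For transcripts of the gene skn-1, the paper shows changes after cleavage of COH-1 by biological replicate batch. Whether a sample number marks such a batch, a shared culture or a day was not stated. A common shift of one sample therefore enters all members at once, and the number of members below 0 is not a count of independent observations.

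In the same comparison 34 of 70 mitochondrial ribosome genes fell and 0 rose (median −0.37), as did 16 of 45 genes of the ribosome assembly list (median −0.32; 1 of them, ebp-2, encodes a microtubule-binding protein) and 14 of 36 translation factor genes (median −0.34). The examples with the smallest p were mrpl-39, at −0.51 (adjusted p = 0.011), and eif-3.K, a subunit of an initiation factor, at −0.47 (adjusted p = 0.011). The median of the mitochondrial ribosome genes was close to that of the cytosolic ones, but their median standard error was 0.11, against 0.19. Of 30 germline genes 14 fell and 0 rose, with a median of −0.60. Their summed level was 950 to 1075 RPM after cleavage and 1094 to 1320 in the controls. Of 18 tested epidermal genes 4 fell, and their summed level was 2105 to 3818 against 4433 to 8351 RPM. Of 25 neuronal genes 5 rose and 1 fell, and their summed level was 2432 to 2737 against 1548 to 1992 RPM. Of 18 body wall muscle genes 1 rose and 16 were above 0, and their summed level was 36132 to 39847 against 28410 to 33105 RPM. In the germline, epidermal, neuronal and body wall muscle lists the ranges of the groups did not overlap. Of 19 intestinal genes 1 rose and 1 fell, and their summed level overlapped, at 10981 to 11592 against 10421 to 11948 RPM. Of all genes 10.3% rose and 11% fell in this comparison. The part of these tissues in the lower levels of the family was not tested.

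**Figure D4:**
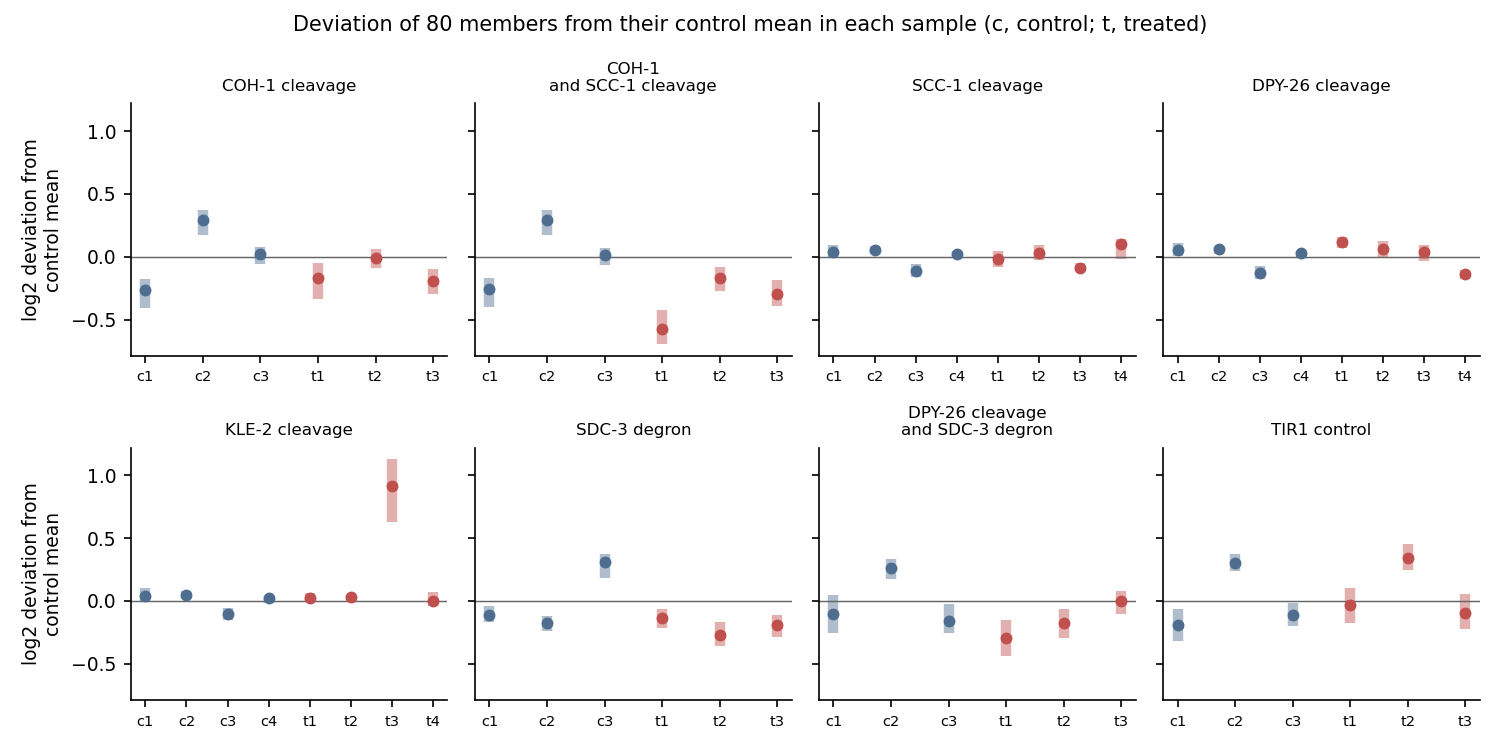
Log2 deviation of 80 members from their control mean (y axis) in each control (c, blue) and treated (t, red) sample of the 8 comparisons; points are medians over members and bars run from the lower to the upper quartile. Single samples such as the third KLE-2 sample at 0.92 and the second batch 2 TEV control at 0.29 shift nearly all members at once.

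After cleavage of COH-1 alone no member passed the edgeR test, none had an unadjusted p under 0.05, and DESeq2 called none. In this comparison 0.00719% of 13901 genes rose and 0% fell, and 6.27% had an unadjusted p under 0.05. The paper compared the same strains with DESeq2, leaving out genes that oscillate in development. It reports far more changed genes, most of them changed by little. All 80 members were below 0, with a median log2 fold change of −0.14 and a range from −0.36 for rpl-41.1 to −0.02 for rps-7. The median SE of a member was 0.20, larger than the median change. The median was −0.0032 without the second TEV control, −0.28 without the first, and −0.13 to −0.20 without any other sample. Pair by pair, the median deviations from the control mean were −0.26 in the control and −0.17 after cleavage for number 1, 0.29 and −0.0087 for number 2, and 0.02 and −0.19 for number 3, so the first pair went the other way. The difference between the effect of SCC-1 and that of COH-1, from different batches, had a median of 0.15 over the members (0.01 without the second and 0.28 without the first TEV control of batch 2, 0.24 without the second COH-1 sample), and 0 of 80 passed the interaction test in either direction, where 3.02% of genes were higher and 3.74% lower.

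After cleavage of KLE-2 no member passed, none had an unadjusted p under 0.05, and DESeq2 called none. Of 14331 genes, 0.419% rose and 0.754% fell, and 15.2% had an unadjusted p under 0.05. The median log2 fold change was 0.31, with 73 members above 0, but without the third KLE-2 sample it was 0.01, with 49 above 0 and still 0 called. In that sample the median deviation from the control mean was 0.92, against −0.0011 to 0.031 in the other 3. The extreme members show the same. For rps-19 the values were 1356, 1401, 3714 and 1293 CPM, against 1413, 1453, 1094 and 1254 CPM in the controls (log2 fold change 0.57, adjusted p = 0.50, and 0.05 without the third sample). For rpl-36.A they were 2186, 2023, 268 and 2011 CPM, against 1983, 2137, 2083 and 2139 CPM (−0.36, adjusted p = 0.77, and −0.01 without it). The third sample was the highest for rps-19 and the lowest for rpl-36.A, and the other samples overlapped with the controls.

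Length moved with this difference. The 15 tested members with a main transcript under 400 bases had a median log2 fold change of 0.10 in the KLE-2 comparison, and the 65 longer ones one of 0.33. Without the third sample the medians were 0.02 and 0.01. What sets this sample apart was not tested.

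With auxin, the SDC-3 degron strain had lower values for 78 of 80 members, of which none fell by the test. The median log2 fold change was −0.22, and in 11 members every auxin sample lay below every control, where 16.8% of all 13632 genes did. These values were scaled by TMM factors. By share of all reads, the members took 18.5% ± 0.617 with and 18.9% ± 1.37 without auxin (SD, n = 3 each), and the groups overlapped. The size of the shift thus depended on the scaling. 1 member rose, where 0.814% of genes rose and 0.455% fell. Without the third no-auxin control, in which 77 of 80 members lay above the control mean, the median was −0.07. The change was related to length: across the 80 members, Spearman's rho between the length of the main transcript and the log2 fold change was −0.64. Members share libraries and are not independent, so this is a description of these samples. Of the stalk genes rla-0 stood at 4679, 4137 and 4683 CPM with auxin and at 5228, 4723 and 7479 CPM without. The third control stood far above the others, and the log2 fold change was −0.37 (adjusted p = 0.36).

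The member that rose was rpl-24.2, at I:9669415–9670098 on the plus strand. It stood at 69.5, 76.5 and 80.97 CPM without auxin and at 114, 122 and 122 CPM with it. The groups did not overlap, as in 16.3% of all genes, with a log2 fold change of 0.66 (SE 0.11, edgeR adjusted p = 0.0495). The call lay at the threshold, and 5 of 6 fits that left out a sample lost it: all but the one without the third control, with adjusted p from 0.055 to 0.24. Its relative rpl-24.1 had a log2 fold change of −0.32 (adjusted p = 0.45), and rpl-24.2 made up 5.14% ± 0.330 of the TPM of this pair with auxin and 2.78% ± 0.505 without (SD, n = 3 each; exact two-sided permutation test, p = 0.1, the smallest possible).

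Of 18 tested epidermal genes none passed in the SDC-3 comparison, with a median log2 fold change of −1.69. Their summed level was 1251 to 3714 RPM with auxin and 6804 to 9404 without. The neuronal genes, of which none passed and 21 of 25 were above 0, summed to 2103 to 2355 RPM with auxin and 1729 to 1776 without. The part of these tissues in the values of the family was not tested.

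The TIR1 control against the TEV control with auxin asks what the degron system does on its own. No member passed the edgeR test, 1 was higher at an unadjusted p under 0.05, and DESeq2 called none. Of 13847 genes, 4.68% rose and 9.76% fell, and 11.9% were higher at an unadjusted p under 0.05. The median log2 fold change of the members was 0.08, with 67 above 0, but its direction was not fixed. It was −0.08 without the second TIR1 sample, −0.02 without the first TEV sample, 0.25 without the second TEV sample, 0.10 and 0.16 without the first and the third TIR1 sample, and 0.03 without the third TEV sample. The highest was rpl-24.2, at 90.5, 123.3 and 105.1 CPM against 68.9, 89.5 and 76.5 CPM. Its groups did not overlap, as in 16% of all genes, with a log2 fold change of 0.44 (SE 0.15, adjusted p = 0.10), and in DPY-26 cleavage with SDC-3 degradation it had one of 0.26 (adjusted p = 0.22). The lowest was rpl-25.1, at −0.18 (adjusted p = 0.69).

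In both groups of the TIR1 comparison the second sample was high in all 80 members, with median deviations of 0.34 and 0.30. Of 12 heat shock genes 10 rose in the TIR1 control, with a median of 1.48, and 12 of 18 epidermal genes fell, with a median of −1.30. The TIR1 control is also the control of DPY-26 cleavage with SDC-3 degradation, in which the members had a median of −0.19 and 75 of 80 were below 0. Without the second TIR1 sample this median was −0.05.

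**Figure D5:**
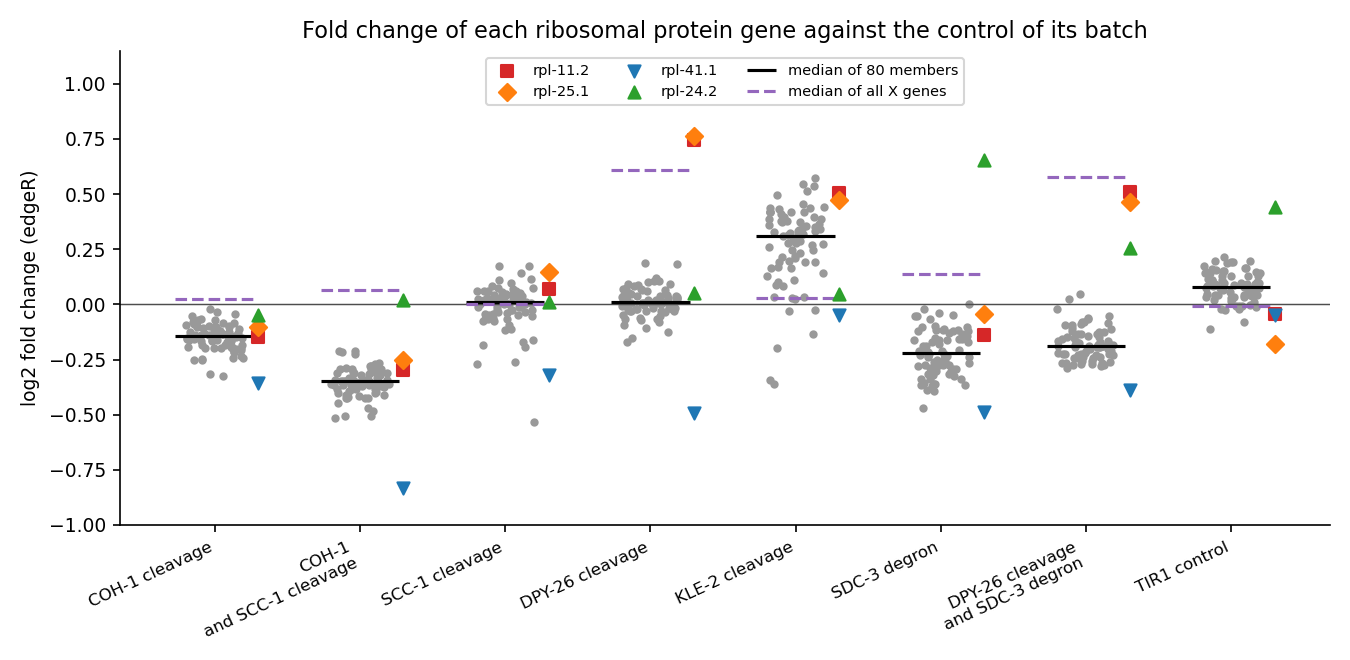
Log2 fold change (y axis) of 80 members in each of 8 comparisons (grey points), with the median of the members (black line), the median of all X genes (dashed) and 4 named members in color. The X-linked rpl-11.2 and rpl-25.1 leave the cloud after cleavage of DPY-26, at 0.75 and 0.77, the median of the members is 0.01, and rpl-41.1 lies lowest at −0.49.

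The ubiquitin fusion genes ubq-2 and ubl-1, which encode further ribosomal proteins but fall outside the naming rule, did not pass in any comparison. Their medians lay between −0.32 and 0.25, near those of the family. Of 17 genes of the TOR pathway and its regulators, which govern ribosome production, 3 rose and 3 fell after cleavage of DPY-26 (17.6% each, against 15.5% and 11.9% of all genes), 1 rose and 4 fell after cleavage of SCC-1 (5.88% and 23.5%, against 14.4% and 14.6%), and 0 rose and 1 fell after cleavage of both cohesin kleisins (5.88% against 11%). With DPY-26 cleaved and SDC-3 degraded 2 rose, in the TIR1 control 1 rose, and in the other comparisons none passed. Among those that rose, aak-2, a catalytic subunit of the energy sensor AMPK, had a log2 fold change of 0.93 after cleavage of DPY-26 (adjusted p = 0.0013). The TOR list was not split by chromosome either, and the median of all X genes was 0.61 after that cleavage. The one that rose with SCC-1 cleaved, maf-1, is a different gene from mafr-1, the repressor of RNA polymerase III, and is no known TOR regulator (log2 fold change 1.22, adjusted p = 0.0011). The kinase gene rsks-1, whose product is the worm S6 kinase, fell with SCC-1 cleaved, by 0.25 on the log2 scale (adjusted p = 0.015).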

How the data were processed

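RNA was measured by poly(A)-selected, stranded, paired-end sequencing of whole L3 larvae. The authors quantified transcripts per lane. The deposited files hold the estimated count of reads per transcript and the TPM, which Salmon scales by effective length. Salmon 1.5.2, cutadapt 2.5 and STAR 2.7.9a are named by the submitters' processing notes; the transcriptome release behind the files was not stated there. Estimated counts were summed over the 82 lane files into 40 samples and over transcripts into 19934 genes, then rounded. Transcript names were matched to Ensembl 115 (WBcel235), and 41 of 42938 matched no gene. Reads of these were 0.0066% to 0.0128% of a sample and were left out. TPM were averaged over lanes.

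Each of 8 comparisons within a batch was fitted on its own samples with edgeR 4.0.16 (R 4.3.3; TMM factors, genes with at least 10 reads in as many samples as 1 group holds, or in 7 of 14 for the interactions, quasi-likelihood test, Benjamini-Hochberg adjustment over all tested genes, threshold 0.05). The 2 differences of effects were fitted as interaction terms. Fits were checked on simulated data. In the COH-1 design edgeR recovered 23.7% of 2-fold changes and DESeq2 60.8%, with 5 and 44 false calls. In the DPY-26 design they recovered 69% and 78%, with 7 and 40 false calls. Lack of a call in the COH-1 comparison is therefore no sign of an unchanged level. Alternatives were RLE factors, TMM factors without the members, no filter, DESeq2 1.42.0, the replicate number as a block, each sample left out, and shares of TPM. The study describes its RNA-seq replicates as biological, but the labels do not say for each sample which culture it came from; where samples share one, p-values measure only the spread between these samples.

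Samples with the same number deviated together after cleavage of COH-1 (correlations of 0.44, 0.59 and 0.51 across genes), so these numbers, taken from the labels, pair the samples there; the block changed no call of a member in that comparison. In the other comparisons at least 1 pair had a correlation of 0.1 or less.

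The members and the gene lists were chosen with earlier results of these data known. The text names the stalk genes, paralogues, X-linked members, the 3 highest and 3 lowest in mean TPM, members called in a comparison or, where none was, the most extreme in each direction, 5 typical large-subunit genes, the 3 members with the largest share of a second transcript, and the 2 genes of other lists with the smallest p. The genes rpl-29, rpl-36.A, rps-19 and rpl-37 meet these rules or were named after their values were seen. Lists were kept as fixed; maf-1 (TOR list) and ebp-2 (ribosome assembly list) were found afterwards not to act in those pathways.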

Additional observations from a re-analysis of the deposited data

Results flagged for a closer look

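In groups of 4 samples, the gap of the most extreme sample to its nearest neighbor was compared with the range of the group, against the critical value of Dixon's test. Of 56 groups of values tested, 9 passed. Chance gives about 1 in 20 for independent values. These share libraries and members move together, so the rates cannot be compared. The third KLE-2 sample gave 4 of the values on levels: the members' share of reads was 21.1%, against 16.9% to 17.4% in the others, rpl-11.2 stood at 4436 RPM against 2547 to 2809, rpl-25.1 at 1391 against 869 to 904, and rla-1 at 2653 against 1781 to 1885. In that sample transcript Y24D9A.4.1 took 21.5% of rpl-7A, against 98.6% to 99.1% in the others.

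The fourth DPY-26 sample gave 3: the members took 15.6% of its reads, against 17.5% to 17.8% in the others, rpl-11.2 stood at 3550 RPM against 4392 to 4455, and rpl-25.2 at 705 against 796 to 801. Without this sample the log2 fold changes of rpl-11.2 and rpl-25.1 after cleavage of DPY-26 stayed past the threshold. The first DPY-26 sample had rla-0 at 4919 RPM, against 4384 to 4424 in the others.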

How the results depend on the processing

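Of the counts, medians and shares recomputed under the alternatives, 432 values stayed within their limits and 26 moved. The limit was a factor of 1.5 for a count, with 0 kept at 0. For a median or share it was 1 SD between replicates on the log2 scale. That SD was 0.21 for COH-1 and 0.25 for the TIR1 control, larger than their medians of −0.14 and 0.08. Staying within it is therefore no sign of a fixed size or direction. Of the fold changes of single genes, 137 kept direction and side of the threshold, 13 lost the call, 3 gained it and 3 changed sign. The replicate block raised the members called lower after cleavage of both cohesin kleisins from 1 to 61, and DESeq2 to 14. The correlations of same-numbered samples there were 0.51, 0.081 and 0.28, and every sample correlated best with its own number. The numbers of the same TEV controls paired the COH-1 samples, but 1 pair missed the limit of 0.1, so a pairing is a hint from the data here. The block called 1 member higher with DPY-26 cleaved and SDC-3 degraded (rpl-11.2, log2 fold change 0.52) and 1 higher in the TIR1 control (rpl-24.2), and changed no other call of a member. DESeq2 called 2 members higher in the former, rpl-11.2 at 0.50 and rpl-25.1 at 0.45, 3 lower after cleavage of SCC-1 and 1 lower in the SDC-3 comparison. Without the filter on low counts 0 members rose in the SDC-3 comparison (rpl-24.2 at 0.64, adjusted p = 0.051). The log2 ratio of the members' share became 0.041 for SCC-1 and −0.0024 for DPY-26 with shares of TPM. The cause of these differences was not tested. For DESeq2 and the block the share of all genes called is not given, so their counts of called members have no background.

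With each sample left out, the members called higher ranged from 0 to 1 for the SDC-3 degron and from 0 to 1 for the TIR1 control. Those called lower ranged from 0 to 1 for both cohesin kleisins, from 0 to 2 for SCC-1 and from 0 to 1 for DPY-26 with SDC-3. The members' median ranged from −0.28 to −0.0032 for COH-1, from −0.48 to −0.21 for both cohesin kleisins, from −0.081 to 0.25 for the TIR1 control, and from 0.014 to 0.28 for the difference between SCC-1 and COH-1. The median difference between the effect of DPY-26 with SDC-3 and that of DPY-26 ranged from −0.29 to −0.027, the latter without the second TIR1 sample. In the SDC-3 comparison rpl-11.2 ranged from −0.27 to 0.052 (without the third no-auxin control) and rpl-25.1 from −0.15 to 0.11, so their direction is not fixed; rpl-25.1 was also 0.01 without the third auxin sample. RLE factors, and TMM factors without the members, moved no median by more than its replicate spread. With 3 samples a group and a median SE near 0.2, small changes of single members are not detectable.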
